A study of Mus musculus with 12 samples.

Results

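The 6 genes described here encode the core enzymes of the pentose phosphate pathway and 1 further cytosolic source of NADPH. They are G6pdx, Pgls, Pgd, Tkt, Taldo1 and Idh1, taken as a named set of 6 among the 28030 Ensembl gene identifiers of the deposited count table. All 6 were found, and all 6 were among the 12086 genes with enough counts to be tested. RNA came from hepatocytes of wild-type female mice aged 12 weeks on normal chow, enriched for the pericentral zone (PC, around the central vein) or the periportal zone (PP, around the portal tract). Digitonin, named in the labels, is a detergent with which cells of the unwanted zone are permeabilised before the rest are collected. Fed mice were killed 4 h into feeding, with chow and with 20% sucrose in the drinking water. Fasted mice lost food and sucrose at that same clock time and were killed 24 h later, and both sets had first been trained for 3 days to a daily cycle of 16 h without food and 8 h with food. Feeding in these comparisons therefore includes sugar water as well as chow. Each of the 4 groups (fed PC, fed PP, fasted PC, fasted PP) has 3 libraries, numbered 1 to 3, which the labels call biological replicates. They do not say whether libraries that share a number share a mouse.

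The pentose phosphate pathway branches from glycolysis at glucose 6-phosphate. Its oxidative arm reduces NADP to NADPH and yields ribulose 5-phosphate, and its non-oxidative arm rearranges sugar phosphates between the pathway, nucleotide synthesis and glycolysis. In liver, NADPH of the cytosol is drawn on by the synthesis of fatty acids and cholesterol and by glutathione and thioredoxin reduction, and the pathway is known for its induction by carbohydrate feeding after fasting. G6pdx encodes glucose-6-phosphate dehydrogenase, the committed step. Pgls encodes 6-phosphogluconolactonase, which opens the lactone ring, and Pgd encodes 6-phosphogluconate dehydrogenase, the other NADPH-forming step. Tkt (transketolase) and Taldo1 (transaldolase) are the carbon-shuffling enzymes of the non-oxidative arm. Idh1 is the cytosolic and peroxisomal NADP-dependent isocitrate dehydrogenase, outside the pathway but a maker of the same cofactor.

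On the GRCm38 (mm10) annotation of GENCODE M21, G6pdx (ENSMUSG00000031400) lies on the minus strand of chromosome X from 74409483 to 74429194. Pgls (ENSMUSG00000031807) lies on the plus strand of chromosome 8 from 71592176 to 71601092, and Pgd (ENSMUSG00000028961) on the minus strand of chromosome 4 from 149149991 to 149166771. Tkt (ENSMUSG00000021957) occupies chromosome 14 from 30548359 to 30574720 on the plus strand, Taldo1 (ENSMUSG00000025503) chromosome 7 from 141392199 to 141402968 on the plus strand, and Idh1 (ENSMUSG00000025950) chromosome 1 from 65158616 to 65186500 on the minus strand. G6pdx shares 418 exon bases with Ikbkg on the opposite strand, and the library kit does not mark strand, so reads of that stretch cannot be assigned to one gene by strand. Pgls shares 776 exon bases with Fam129c on its own strand, and the values of Pgls are uncertain to that extent. The copy of G6pdx on an autosome, G6pd2, was identical at 93.2% of 2332 aligned bases and was listed at 0 counts in every library. A processed pseudogene of Taldo1, Gm17823, was identical at 94.8% of 1016 bases and was not among the identifiers of the count table. How reads it shares with Taldo1 were assigned cannot be seen from that table.

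Sequences before the start sites are shown because Pgd, Tkt and G6pdx were called lower on fasting in PP (Pgd in PC too), Tkt and G6pdx near the threshold, and Taldo1, of the same pathway, was called in neither zone. All 6 genes were matched in the RefSeq table of start sites (GRCm38.p6), where Pgd and Idh1 have more than 1 site. Each window holds the 250 bases before a start, written 5′ to 3′ on the gene's strand. Capitals mark every match, on either strand, to 5 motifs: the E-box CACGTG, the CCAAT box CCAAT, the GC box GGGCGG, the antioxidant response element core TGACNNNGC and the sterol regulatory element core TCACNCCAC. The Pgd window shown is chr4:149166706-149166955 (minus strand), the Tkt window chr14:30548881-30549130 (plus strand) and the Taldo1 window chr7:141391910-141392159 (plus strand). By the GENCODE spans given above, the Tkt window lies inside the gene, and the Pgd window partly inside it. For G6pdx, whose window lies inside the 5′ untranslated exon of a longer GENCODE transcript, only the 29 bases around its antioxidant response element match are given, chrX:74428919-74428947 (minus strand).
Pgd: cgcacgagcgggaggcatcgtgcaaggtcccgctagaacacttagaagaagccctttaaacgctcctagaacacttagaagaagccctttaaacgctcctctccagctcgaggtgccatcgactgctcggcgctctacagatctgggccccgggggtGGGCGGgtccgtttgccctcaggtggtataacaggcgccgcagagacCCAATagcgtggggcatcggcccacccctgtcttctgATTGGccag
Tkt: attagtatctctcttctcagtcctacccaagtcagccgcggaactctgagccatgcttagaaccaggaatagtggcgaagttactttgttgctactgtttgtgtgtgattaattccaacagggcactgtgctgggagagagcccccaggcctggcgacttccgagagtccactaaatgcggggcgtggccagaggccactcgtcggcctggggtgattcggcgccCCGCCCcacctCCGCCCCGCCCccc
Taldo1: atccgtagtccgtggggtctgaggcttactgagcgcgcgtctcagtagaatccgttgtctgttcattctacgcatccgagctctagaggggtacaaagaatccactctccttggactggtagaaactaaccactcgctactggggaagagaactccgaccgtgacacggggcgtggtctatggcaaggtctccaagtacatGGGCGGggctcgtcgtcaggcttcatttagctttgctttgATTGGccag
G6pdx: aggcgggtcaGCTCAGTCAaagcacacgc
Pgd carried CCAAT forward at 46 to 42 bases and, inverted, at 9 to 5 bases before its start, and a GC box at 93 to 88 bases. Taldo1 held the inverted CCAAT at the same distance, 9 to 5 bases, and a GC box at 49 to 44 bases. Tkt had 3 inverted GC boxes within 25 bases of its start, of which the nearest pair share 1 base, and no CCAAT. A GC box was found in at least 1 window of 6 of the 6 genes, against 32.74% of all 32851 single windows of that length. CCAAT was found in 3 of 6 (Pgd, Taldo1 and Idh1), against 33.85%. Counts are per gene and shares per window, which are unlike for Pgd and Idh1, with more than 1 window. The other Pgd window, chr4:149166083-149166332 (minus strand), which lies inside the GENCODE span of the gene, matched none of the 5 motifs. The antioxidant response element core matched in G6pdx alone, inverted at 57 to 49 bases before its start, against 10.16% of all windows. Neither the E-box (6.02% of all windows) nor the sterol regulatory element core (1.05%) was matched in any of the 6. A match is a description of these letters, and a missing match says nothing beyond this window.

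Libraries held 16245846 to 27449412 estimated counts, and 57 to 850 of these fell on G6pdx, the sparsest of the 6, against at least 459 for each of the other 5. Levels below are in CPM, counts scaled to a common library size, with the sizes corrected by trimmed means (TMM). A gene is called where the Benjamini-Hochberg adjusted p of edgeR's quasi-likelihood test over all 12086 genes is under 0.05. Zone markers separated PC from PP: of 8 tested pericentral markers, 7 were called higher in PC in fed mice and 8 in fasted mice, and of 8 tested periportal markers 4 were called lower in PC in each state. Markers of other liver cells summed to 0.567 to 8.27 CPM for 6 Kupffer cell genes, 4.56 to 19.0 for 6 endothelial genes, 0.832 to 14.3 for 5 stellate cell genes, 13.5 to 47.3 for 5 cholangiocyte genes and 0.147 to 6.38 for 6 leukocyte genes, against 76203 to 155249 for 5 hepatocyte genes. The cholangiocyte markers moved with the zone: 1 of 3 tested was called lower in PC in fed mice and 2 of 3 in fasted mice, and 1 of 3 was lower on fasting in PC. Their sums were 23.7 to 27.9 CPM in fed PC, 36.1 to 47.3 in fed PP, 13.5 to 25.1 in fasted PC and 33.7 to 37.3 in fasted PP. Of them, Sox9 stood at 1.91 to 2.92 CPM in fed PC against 6.43 to 12.7 in fed PP, and at 1.38 to 2.44 in fasted PC against 4.70 to 6.77 in fasted PP, while Epcam was listed at 0 in every fed PP and fasted PC library. Their part in the zone results was not tested. Ly6c2, of monocytes, was listed at 0 in every fed PC and fasted PC library. Its median was 0 in fed PP and fasted PP too, with highest values of 0.052 and 0.18 CPM, so no zone contrast is read from it. Erythroid genes summed to 4.48 to 91.8 CPM except in fasted PC library 2, at 268 CPM. Fasted PC library 1 stood apart, with the pericentral gene Glul at 172 CPM against 3639 and 2353 CPM in fasted PC libraries 2 and 3. Its 8 pericentral markers summed to 13609 CPM against 24193 and 21312, and 8 periportal ones to 9081 CPM against 7581 and 8049. The periportal Sds stood there at 112 CPM against 16.2 and 32.6, and Cyp2f2 at 242 CPM against 67.8 and 75.4. Another, Pck1, stood lower there, at 4382 CPM against 4672 and 4516. Whether zone separation was weaker in that library was not tested. Leaving fasted PC library 1 out ended or added no call among the 6 genes, and their values without it are given with the results. In bulk RNA, fewer cells expressing a gene and less RNA per cell cannot be told apart. With library totals in place of TMM, the share of calls that were higher moved from 47.5% to 61.0% (zone, fed), 52.3% to 66.3% (zone, fasted), 52.1% to 39.9% (fasting, PC) and 46.9% to 33.6% (fasting, PP).

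Fasting lowered Pgd in both zones, by 4.46-fold in PC and 5.55-fold in PP, the steepest declines among the 6 genes. Idh1 fell by a smaller factor in both zones, 1.45-fold in PC and 1.65-fold in PP. G6pdx and Tkt passed the test only in PP, where they were 4.25-fold and 2.07-fold lower, but for none of the 6 did the fasting effect itself differ between zones past the threshold. Pgls and Taldo1 passed in neither zone. In PC, 2 of 6 genes were called lower, against 10.2% of all tested genes, and in PP 4 of 6, against 9.50%. None of the 6 was called higher on fasting, by edgeR or by DESeq2 (0 of 6 in either zone at an unadjusted p under 0.05), where 11.1% of all genes were called higher in PC and 8.39% in PP. The median log2 fold change of the 6 was -0.53 in PC and -0.89 in PP, against 0.0042 and 0.0049 over all tested genes.

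**Figure D1:**
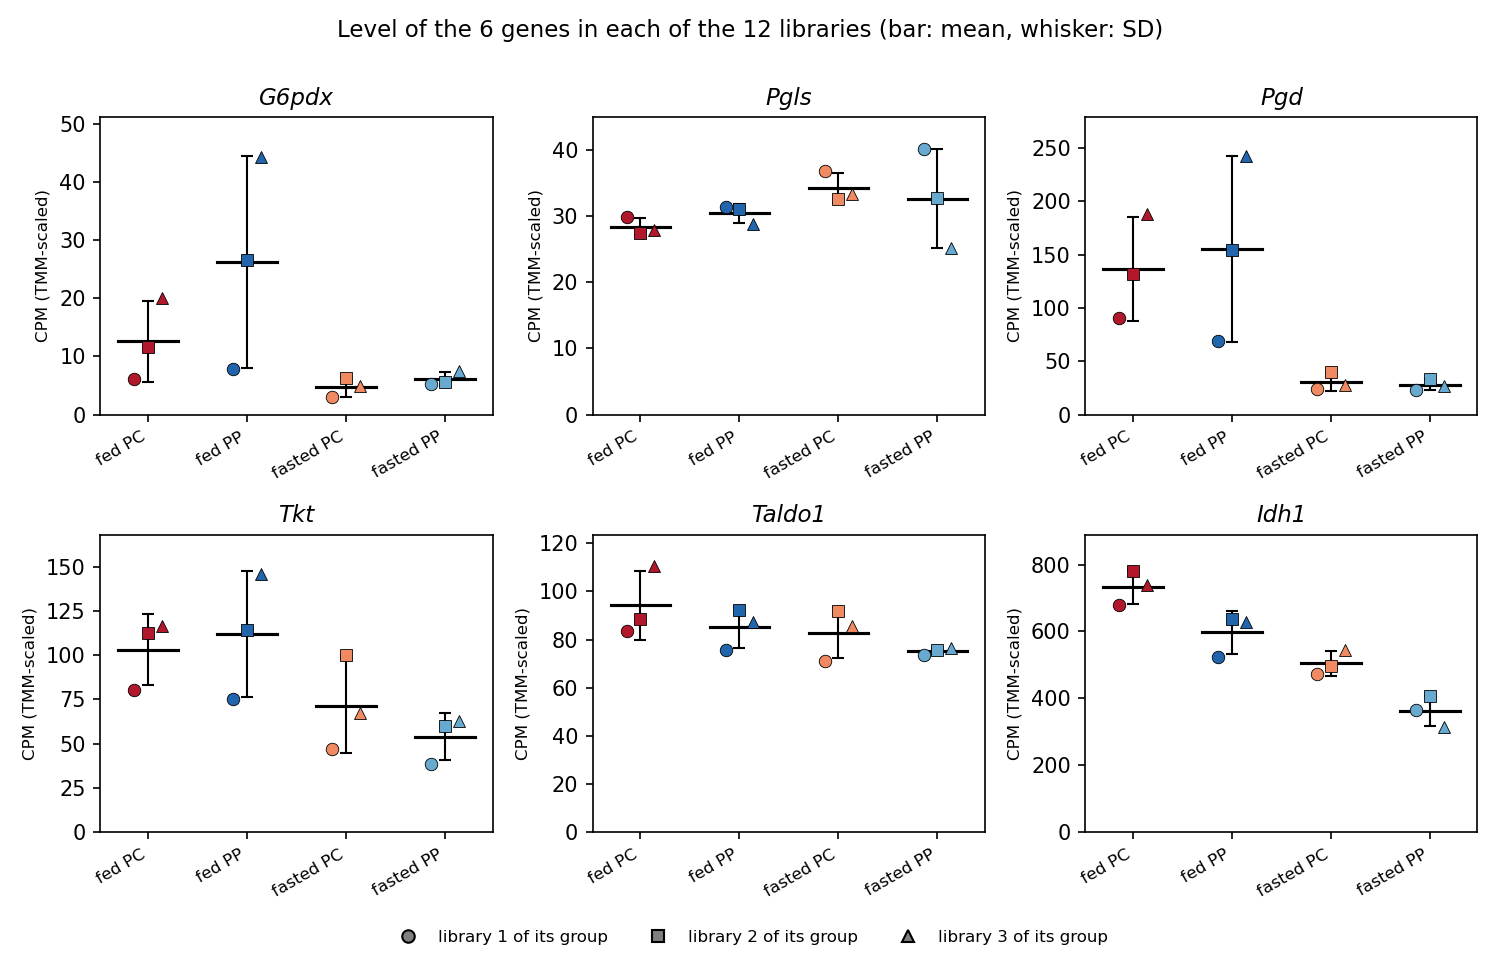
Level of each of the 6 genes, in TMM-scaled CPM on axes that start at 0, by group, with 1 point per library (circle, square and triangle for libraries 1, 2 and 3), the group mean as a bar and the SD as whiskers (n = 3). Pgd lies at 68.6 CPM or more in every fed library and at 40.0 CPM or less in every fasted one, while the fed and fasted ranges of Taldo1 overlap in both zones.

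The first enzyme of the oxidative arm, G6pdx, stood at 6.18, 11.5 and 19.9 CPM in fed PC libraries 1, 2 and 3 and at 2.94, 6.26 and 4.93 CPM in fasted PC. In fed PP it stood at 7.76, 26.5 and 44.2 CPM, and in fasted PP at 5.27, 5.62 and 7.52 CPM. Fed and fasted libraries overlapped in PC, where fasted library 2 lay just above fed library 1, and they met without overlap in PP, with fed library 1 only slightly above fasted library 3. The log2 fold change in PP was -2.09 ± 0.60 (SE; edgeR adjusted p = 0.038, 95% interval -3.43 to -0.75). In PC it was -1.41 ± 0.61 (edgeR adjusted p = 0.13), with a 95% interval of -2.78 to -0.051 before adjustment, so a fall of the size measured in PP lies within it. The PP call ended without fed PP library 3 (log2 fold change -1.47, edgeR adjusted p = 0.13), fed PP library 2 (0.083), fed PC library 2 (0.058), fasted PC library 3 (0.057) and each fasted PP library in turn (0.118, 0.112 and 0.075 without libraries 1, 2 and 3). In PC, leaving out fed PP library 1 brought a call (-1.43, edgeR adjusted p = 0.039), and without fasted PC library 1 the value was -1.18 (edgeR adjusted p = 0.28).

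Pgls, which hydrolyses the lactone made by G6pdx, stood at 29.8, 27.4 and 28.0 CPM in fed PC and 36.8, 32.6 and 33.4 CPM in fasted PC. In PP it read 31.3, 31.2 and 28.8 CPM fed and 40.1, 32.7 and 25.1 CPM fasted. All fasted PC libraries lay above all fed PC libraries, by a margin of a few CPM, while the fasted PP libraries straddled the fed ones. The log2 fold change was 0.27 ± 0.14 in PC (edgeR adjusted p = 0.20, 95% interval -0.037 to 0.58) and 0.10 ± 0.14 in PP (edgeR adjusted p = 0.68, -0.21 to 0.41). Those intervals leave room for a rise but not for a fall of the size of Pgd in either zone. Without fasted PC library 1 the PC value was 0.20 (edgeR adjusted p = 0.41). Pgls did not pass in any of the 18 alternative analyses of either fasting comparison.

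Pgd, the second dehydrogenase of the arm, showed the clearest response of the 6. Fed PC libraries 1, 2 and 3 held 90.3, 131 and 188 CPM, and fasted PC libraries 24.2, 40.0 and 27.8 CPM. In PP, the fed libraries held 68.6, 154 and 243 CPM and the fasted libraries 23.0, 33.6 and 27.1 CPM. In both zones every fed library was above every fasted one, and the lowest fed library of either zone (fed PP library 1) was still above the highest fasted library (fasted PC library 2). The log2 fold change was -2.16 ± 0.44 in PC (edgeR adjusted p = 0.0066) and -2.47 ± 0.44 in PP (edgeR adjusted p = 0.0043). The call held in all 18 alternatives in each zone, with values from -2.39 to -1.86 in PC and -2.81 to -1.99 in PP, and it read -2.03 in PC without fasted PC library 1 (edgeR adjusted p = 0.026).

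In the non-oxidative arm, Tkt stood at 80.2, 112 and 117 CPM in fed PC and at 46.8, 100.3 and 67.5 CPM in fasted PC, so the groups overlapped through fasted PC library 2. In fed PP it stood at 75.2, 114.5 and 146 CPM, all above the 38.6, 60.2 and 63.1 CPM of fasted PP. The log2 fold change was -1.05 ± 0.32 in PP (edgeR adjusted p = 0.042) and -0.53 ± 0.31 in PC (edgeR adjusted p = 0.26, 95% interval -1.22 to 0.16). The PC value without fasted PC library 1 was -0.32 (edgeR adjusted p = 0.52). The PP call of Tkt, near the threshold, ended without fed PC library 2 (edgeR adjusted p = 0.063) or 3 (0.055), fed PP library 2 (0.103) or 3 (0.154), fasted PC library 3 (0.060) or fasted PP library 1 (0.135), 2 (0.080) or 3 (0.065).

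Taldo1, the partner of Tkt in the same arm, stood at 83.4, 88.7 and 110.4 CPM in fed PC and 71.2, 91.8 and 85.7 CPM in fasted PC, and the groups overlapped. The fed PP libraries held 75.6, 92.4 and 87.2 CPM and the fasted PP libraries 73.6, 75.7 and 76.4 CPM, again with overlap, and with the narrowest spread of any group of this gene in fasted PP. Its log2 fold change was -0.18 ± 0.13 in PC (edgeR adjusted p = 0.34, 95% interval -0.46 to 0.095) and -0.18 ± 0.13 in PP (edgeR adjusted p = 0.38, -0.45 to 0.10). The PC value was -0.10 without fasted PC library 1 (edgeR adjusted p = 0.62). A fall of Taldo1 as large as that measured for Tkt in PP lies outside both intervals.

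Idh1, the most abundant of the 6, stood at 678, 782 and 739.5 CPM in fed PC and 473, 496 and 545 CPM in fasted PC. In PP it stood at 524, 638 and 629.7 CPM fed and 366, 406 and 314 CPM fasted. No fed and fasted libraries overlapped within a zone. The log2 fold change was -0.54 ± 0.13 in PC (edgeR adjusted p = 0.0096) and -0.72 ± 0.13 in PP (edgeR adjusted p = 0.0024). Both calls held in all 18 alternatives, with values from -0.62 to -0.51 in PC (-0.51 without fasted PC library 1) and from -0.81 to -0.62 in PP.

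Counted without a model, fed and fasted libraries did not overlap for 3 of the 6 genes in PC, Pgd and Idh1 with fasted libraries lower and Pgls with fasted libraries higher, against 41.7% of all tested genes. In PP they did not overlap for 4 of 6, G6pdx, Pgd, Tkt and Idh1, all with fasted libraries lower, against 34.6%. The difference between the fasting effects of the zones (PC minus PP) was 0.67 ± 0.84 for G6pdx on the log2 scale (95% interval -1.21 to 2.55), 0.52 ± 0.44 for Tkt (-0.45 to 1.499), 0.32 ± 0.59 for Pgd (-1.004 to 1.64), 0.18 ± 0.18 for Idh1 (-0.20 to 0.57), 0.17 ± 0.20 for Pgls (-0.26 to 0.60) and -0.0068 ± 0.18 for Taldo1 (-0.40 to 0.39). None of the 6 was called (edgeR adjusted p = 0.997 or above for each, 0 of 6 at an unadjusted p under 0.05, and 0 of 6 by DESeq2). Over all tested genes edgeR called 0 (0% of 12086), with 465 at an unadjusted p under 0.05, and DESeq2 called 11. Without fasted PC library 1 the difference read 0.90 for G6pdx, 0.73 for Tkt, 0.44 for Pgd, 0.20 for Idh1, 0.093 for Pgls and 0.068 for Taldo1, and none of the 6 was called by edgeR. For G6pdx and Pgd the intervals with all libraries are more than 2 log2 units wide, so the data set only loose limits on a zone difference in their response.

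**Figure D2:**
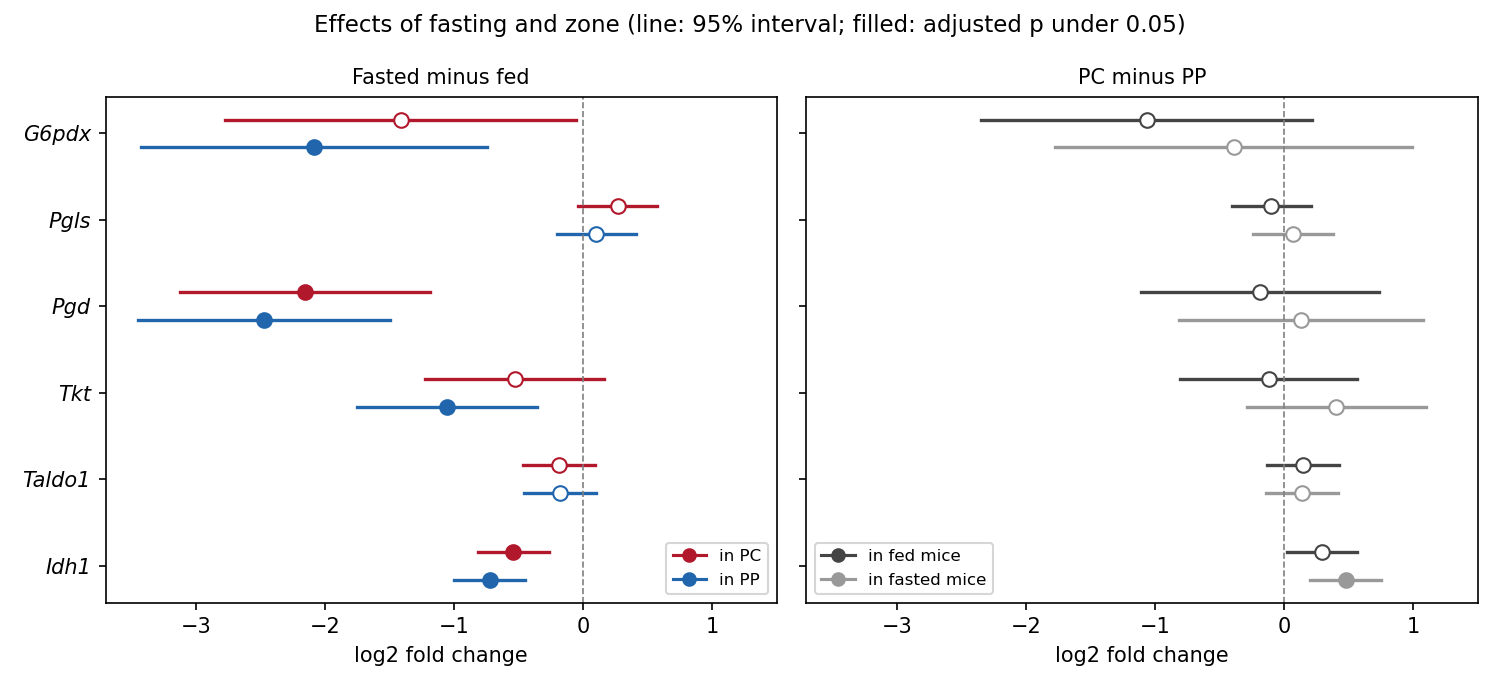
Log2 fold change of each gene with its 95% interval, for fasted minus fed in PC and PP (left) and for PC minus PP in fed and fasted mice (right). Filled points have an edgeR adjusted p under 0.05: Pgd and Idh1 in both zones and G6pdx and Tkt in PP on the left, and Idh1 in fasted mice on the right.

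Between the zones, Idh1 was the only one of the 6 genes called by edgeR, 1.39-fold higher in PC than in PP in fasted mice. Its log2 fold change in fasted mice was 0.48 ± 0.13 (edgeR adjusted p = 0.043), with the PC libraries at 473 to 545 CPM all above the PP libraries at 314 to 406 CPM. In fed mice it was 0.30 ± 0.13 (edgeR adjusted p = 0.25, 95% interval 0.023 to 0.57 before adjustment), and the PC libraries at 678 to 782 CPM were again all above the PP libraries at 524 to 638 CPM. The fasted call ended without any 1 of 8 libraries, namely fed PC 1 (edgeR adjusted p = 0.058), 2 (0.067) or 3 (0.064), fed PP 2 (0.066), fasted PC 2 (0.107) or 3 (0.149) and fasted PP 1 (0.110) or 3 (0.162), while the value stayed between 0.37 and 0.57 in all 18 alternatives. Without fasted PC library 1 it was 0.52 (edgeR adjusted p = 0.042).

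In fed mice 0 of 6 genes were called between zones by edgeR (1, Idh1, at an unadjusted p under 0.05) and 0 by DESeq2, where 2.24% of all tested genes were called higher in PC and 2.47% lower. In fasted mice 1 of 6 was called higher, against 3.35% of all genes, and 3.05% were called lower. Libraries of PC and PP did not overlap for 1 of 6 genes, Idh1, in fed mice, against 26.0% of all genes, and for the same 1 of 6 in fasted mice, against 22.0%. G6pdx was higher in PP than in PC on average in fed mice, 26.1 ± 18.2 CPM against 12.6 ± 6.93 CPM (SD, n = 3), but the libraries overlapped and the log2 fold change of -1.06 ± 0.57 did not pass (edgeR adjusted p = 0.41, 95% interval -2.34 to 0.22). In fasted mice its value was -0.39 ± 0.62 (edgeR adjusted p = 0.81). Pgd differed by -0.18 ± 0.41 in fed and 0.13 ± 0.43 in fasted mice, with 95% intervals of -1.10 to 0.74 and -0.81 to 1.08, and neither passed. Tkt differed by -0.12 ± 0.31 in fed mice (95% interval -0.80 to 0.57) and 0.40 ± 0.31 in fasted mice (-0.29 to 1.10), neither of which passed. For Pgls the 95% intervals of the zone difference were -0.41 to 0.21 in fed mice and -0.24 to 0.38 in fasted mice, and for Taldo1 -0.13 to 0.42 and -0.14 to 0.42, which limits a zone difference of either gene to less than 1.5-fold at this spread. Without fasted PC library 1 the zone difference in fasted mice read -0.14 for G6pdx, 0.011 for Pgls, 0.27 for Pgd, 0.63 for Tkt and 0.23 for Taldo1, and none of these 5 was called by edgeR. Over the 6 genes the median log2 fold change between zones was -0.11 in fed and 0.14 in fasted mice, against -0.014 and -0.0015 over all tested genes. The zone and fasting comparisons share libraries, so their values are not independent.

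Levels can be set side by side between genes only per length of transcript, and for that CPM was divided by the kilobases of the principal transcript. By this measure Idh1 led in every group, with 318 ± 22.6 CPM per kilobase (SD, n = 3) in fed PC and 157 ± 20.0 in fasted PP, and in no group did its libraries overlap those of the next gene. Taldo1 came next in fed PC at 76.6 ± 11.6 CPM per kilobase, overlapping Pgd at 61.6 ± 22.1. Tkt at 32.0 ± 6.21 and Pgls at 31.8 ± 1.43 overlapped each other there, and G6pdx was lowest at 4.73 ± 2.61. In fed PP the order was the same apart from Pgd (69.9 ± 39.2) and Taldo1 (69.2 ± 6.98), whose libraries overlapped. In the fasted groups Pgd stood below all but G6pdx, at 13.8 ± 3.75 CPM per kilobase in fasted PC and 12.6 ± 2.41 in fasted PP, under Taldo1 (67.5 ± 8.61 and 61.2 ± 1.17), Pgls (38.4 ± 2.54 and 36.6 ± 8.40) and Tkt (22.2 ± 8.37 and 16.7 ± 4.15). Libraries of Pgd and Tkt overlapped in both fasted groups. G6pdx stayed the lowest, at 1.78 ± 0.63 and 2.31 ± 0.46 CPM per kilobase. With the merged exon length in place of the principal transcript, the pairs Pgd and Taldo1 and Pgls and G6pdx exchanged places in fed PP, and Pgls and Tkt did in fasted PC.

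Spread between fed libraries was wide for the genes that fell most. G6pdx ran over a 5.70-fold range between the lowest and the highest fed PP library and a 3.23-fold range in fed PC, and Pgd over 3.53-fold and 2.08-fold. Library 1 was the lowest and library 3 the highest for G6pdx, Pgd and Tkt in both fed groups. Me1 and Fasn, which encode cytosolic malic enzyme and fatty acid synthase, were also lowest in fed library 1 of each zone, over 2.93-fold and 3.01-fold ranges in fed PP. Taldo1, by contrast, ran over 1.22-fold in fed PP and 1.32-fold in fed PC, and Pgls over 1.09-fold in both. Food intake, hour of killing and sugar intake of single mice were not analysed here, and whether the spread follows them was not tested.

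**Figure D3:**
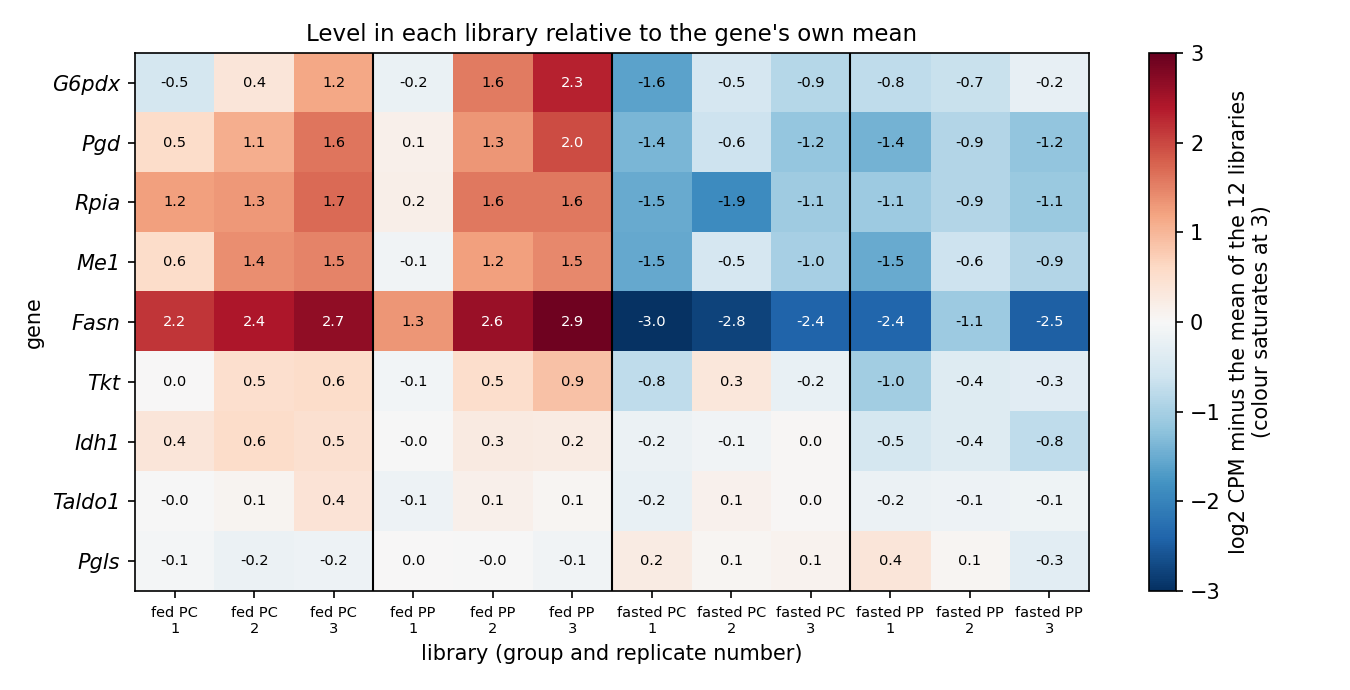
Log2 CPM of the 6 genes and of Rpia, Me1 and Fasn in each of the 12 libraries, minus the gene's mean over those libraries (red higher, blue lower, colour limited to 3 either way). In each zone, fed library 1 holds the lowest fed value of G6pdx, Pgd, Me1 and Fasn.

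As a description of likeness, the log2 CPM of each gene was correlated over the 12 libraries with that of 8131 genes of at least 5 CPM on average. The 6 genes themselves, genes with no symbol, predicted models (Gm or Rik symbols) and pseudogenes were left out of the 8131. The libraries share the fed and fasted division, so genes that differ between those states correlate for that alone. Nearest to Pgd were Chrna4 (Pearson r = 0.987) and Me1 (0.981), and nearest to G6pdx were Gpi1 (0.948) and Ubr2 (0.945). Tmem135 (0.969) and Trpc4ap (0.964) were nearest to Tkt, and Hsd17b12 (0.980) and Cyp4f14 (0.975) to Idh1. Taldo1 was nearest to Slc25a1 (0.900) and Dlat (0.899), and Pgls to Apoa1 (0.922) and Pttg1 (0.890). Among the 6, Pgd correlated with Tkt at 0.891 and with G6pdx at 0.887, while Pgls had negative coefficients with all of the others, from -0.65 with Tkt to -0.31 with Idh1.

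The other genes of the pathway were followed as a list of 12, of which 9 were tested and Tktl1, Tktl2 and G6pd2 were listed at 0 counts. Fasting in PC left 3 of the 9 past the test: Rpia and Shpk fell, against 10.2% of all tested genes, and H6pd rose, against 11.1%. Rpia, ribose-5-phosphate isomerase, which links the oxidative and non-oxidative arms, stood at 19.0, 19.8 and 26.2 CPM in fed PC and 2.83, 2.17 and 3.82 CPM in fasted PC. In PP it stood at 9.08, 24.0 and 23.9 CPM fed and 3.76, 4.35 and 3.69 CPM fasted, with no overlap in either zone. Its log2 fold change was -2.87 ± 0.35 in PC (edgeR adjusted p = 0.00029) and -2.27 ± 0.34 in PP (edgeR adjusted p = 0.0011), and it was the only gene of the list called in PP, where 9.50% of all genes were called lower and 8.39% higher. H6pd, the glucose-6-phosphate dehydrogenase of the endoplasmic reticulum, rose in PC, from 249, 272 and 259 CPM fed to 345, 483 and 397 CPM fasted, with no overlap. That rise was 0.65 ± 0.14 on the log2 scale (edgeR adjusted p = 0.0059). Shpk, sedoheptulokinase, fell by 0.38 on the log2 scale in PC (edgeR adjusted p = 0.019). Leaving out fed PC library 3 ended that call (0.084). Between zones, Pgm2 was lower in fasted PC than in fasted PP, at -0.77 ± 0.21 on the log2 scale (edgeR adjusted p = 0.047). Leaving out any library but fed PP 1 or fasted PP 2 ended that call (highest edgeR adjusted p 0.122). The Pgm2 call also ended in 4 of the 6 alternatives that keep all libraries or only the groups compared, the replicate block among them. In fed mice 0 of 9 were called by edgeR, 2 were lower at an unadjusted p under 0.05 (Prps1 at -0.51 and Pgm2 at -0.61) and DESeq2 called 1. The median of the 9 on fasting was -0.31 in PC and -0.098 in PP.

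Among 12 other genes listed as makers of NADPH or NADP, all tested, the cytosolic malic enzyme Me1 had the largest change. It stood at 618, 1107 and 1168 CPM in fed PC and 145, 297 and 209 CPM in fasted PC, and at 391, 987 and 1145 CPM in fed PP and 148, 272 and 229.7 CPM in fasted PP. Every fed library was above every fasted one of either zone. Its log2 fold change was -2.15 ± 0.44 in PC (edgeR adjusted p = 0.0062) and -1.96 ± 0.43 in PP (edgeR adjusted p = 0.012), close in size to those of Pgd. The mitochondrial malic enzyme Me3 rose in PC by 0.88 ± 0.24 (edgeR adjusted p = 0.022), and its call was lost without fed PC library 2 (0.067) or 3 (0.085) or fasted PC library 3 (0.083). NAD kinase, Nadk, fell in PP (-0.46 ± 0.098, edgeR adjusted p = 0.0064). That call ended with only the fed and fasted PP libraries in the fit. So 1 of 12 was called lower and 1 higher in PC (10.2% and 11.1% of all genes), and 2 of 12 lower in PP (9.50%), and the medians were -0.18 in PC and -0.026 in PP. Between zones edgeR called 0 of 12 in fed mice, where 2 were at an unadjusted p under 0.05 and DESeq2 called 0, and 0 of 12 in fasted mice, where 4 were and DESeq2 called 1. The 2 with the smallest p were Idh2 (0.27) and Nadk2 (0.32) in fed mice and Nadk (0.33) and Nadk2 (0.38) in fasted mice, as log2 fold changes.

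**Figure D4:**
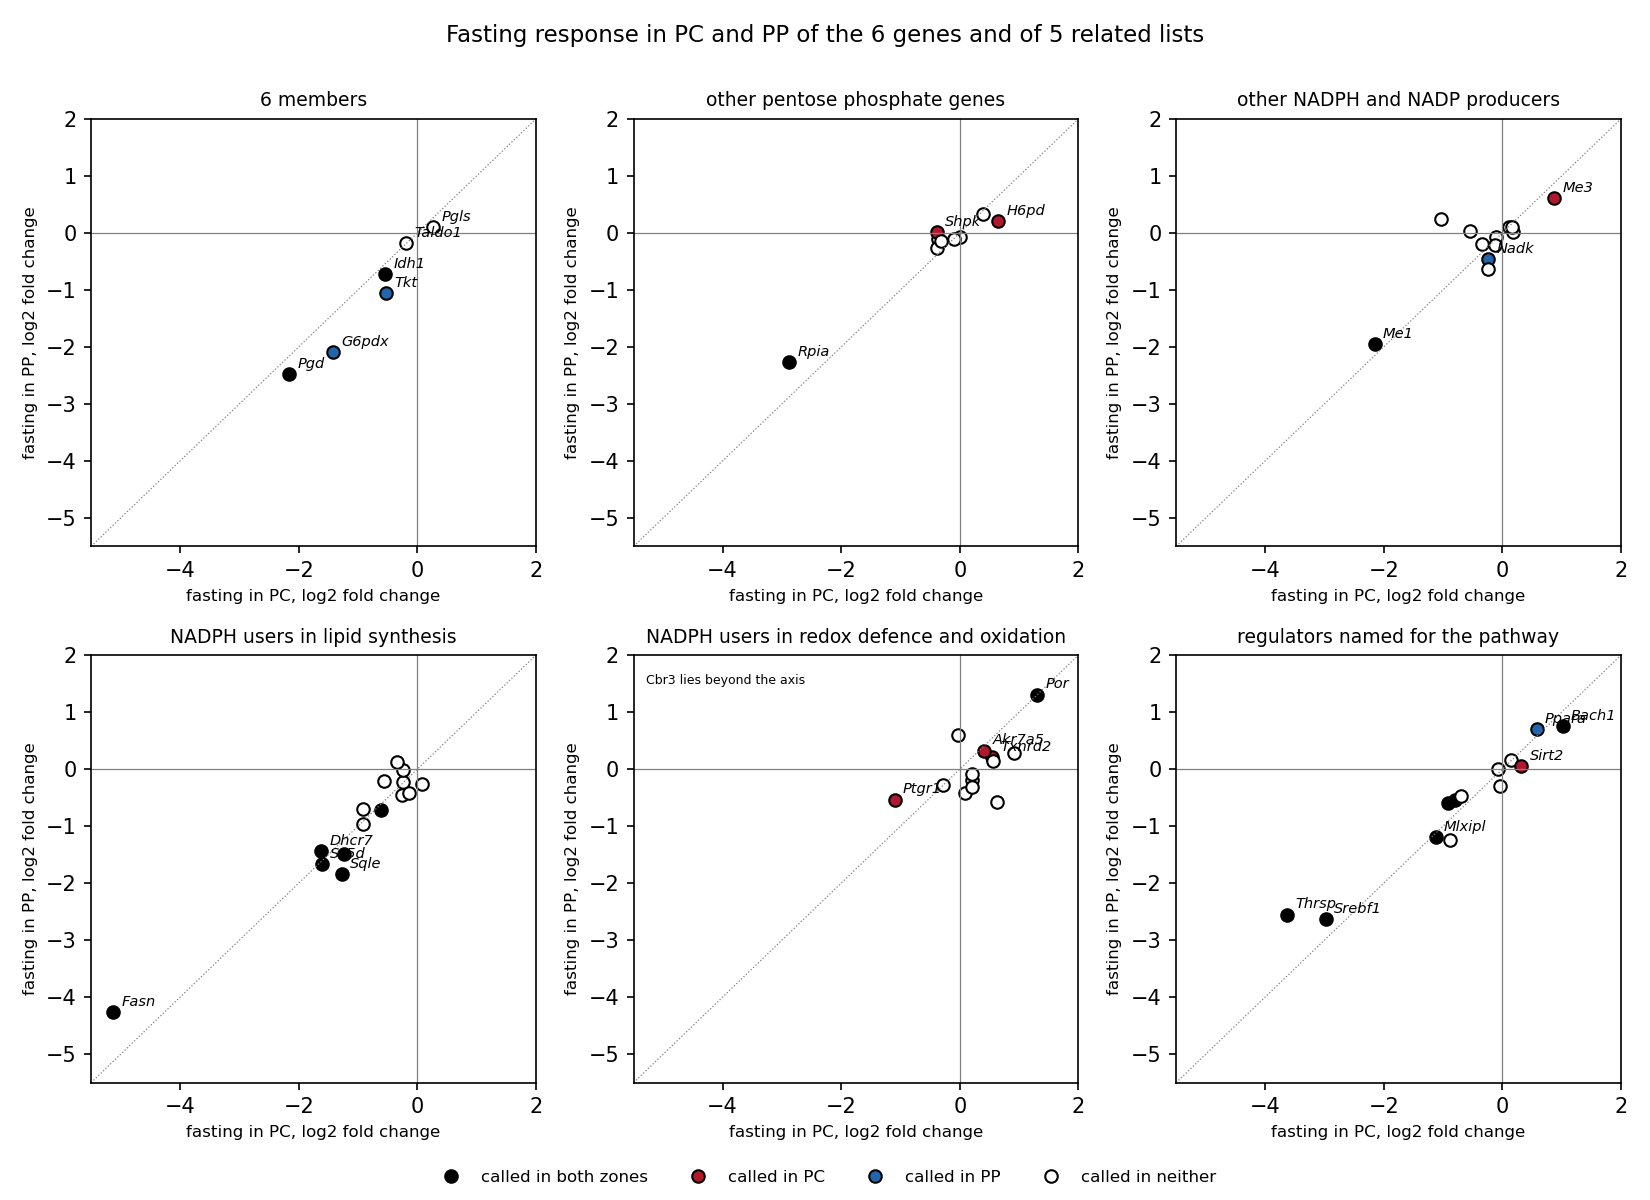
Fasting effect in PP against fasting effect in PC, both as log2 fold change (fasted minus fed), for the 6 genes and for 5 lists, with 1 point per tested gene and colour for the zone in which it was called. Pgd, Rpia, Me1, Fasn, Srebf1 and Thrsp lie at -1.9 or lower on both axes, Por lies in the upper right corner, and Cbr3 falls outside the axes.

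Of 15 genes listed as NADPH users in lipid synthesis, 6 were called lower on fasting in PC and 6 in PP. Over all tested genes the shares were 10.2% in PC and 9.50% in PP. Medians of the 15 were -0.62 in PC and -0.70 in PP. Fasn fell by the most, from 1505, 1812 and 2132 CPM in fed PC to 43.0, 49.0 and 64.4 CPM in fasted PC and from 851, 2039 and 2565 CPM in fed PP to 64.4, 158 and 61.8 CPM in fasted PP. The log2 fold change of Fasn was -5.12 ± 0.51 in PC (edgeR adjusted p = 0.00018) and -4.26 ± 0.49 in PP (edgeR adjusted p = 0.00044). Of the cholesterol synthesis enzymes, Sc5d fell in both zones (-1.61 ± 0.21 in PC and -1.67 ± 0.21 in PP) and so did Sqle (-1.28 ± 0.38 in PC and -1.84 ± 0.39 in PP) and Dhcr7 (-1.62 ± 0.44 and -1.44 ± 0.44). The PC call of Dhcr7 ended without fed PC library 2 or 3 or fasted PC library 2 or 3 (highest edgeR adjusted p 0.091), and its PP call held only without fed PC library 1 or fed PP library 1. The PC call of Sqle ended without fed PC library 2 or 3, fed PP library 2 or any single fasted PC library. Between zones, Tm7sf2, a sterol reductase, was called higher in PC than in PP in fasted mice (0.70 ± 0.18). Its call held only without fed PC library 3, fasted PC library 1 or fasted PP library 2 (highest edgeR adjusted p 0.165).

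A list of 14 genes covered NADPH users in redox defence and oxidation. There, fasting gave 3 calls higher and 1 lower in PC (11.1% and 10.2% of all genes) and 1 higher in PP (8.39%). Por, the reductase that passes electrons from NADPH to the cytochromes P450, rose on fasting in both zones, from 578, 614 and 567 CPM to 1142, 1653 and 1557 CPM in PC and from 307, 419 and 422 CPM to 948, 1021 and 869.8 CPM in PP. Its log2 fold change was 1.31 ± 0.16 in each zone (edgeR adjusted p = 0.00023 in PC and 0.00032 in PP). In PC the mitochondrial thioredoxin reductase Txnrd2 (0.54 ± 0.14) and Akr7a5 (0.41 ± 0.11) rose too, and Ptgr1 fell (-1.10 ± 0.29). The Txnrd2 call ended without fed PC library 2 or fasted PC library 1, that of Akr7a5 without fed PC library 2 or 3 or fasted PC library 2, and that of Ptgr1 without fed PC library 2 or 3 or fasted PC library 1 (highest edgeR adjusted p 0.0999). None of Txnrd2, Akr7a5 and Ptgr1 was called in PP. Fasted PP libraries still lay above fed ones without overlap for Txnrd2 (15.3 to 17.8 against 13.9 to 14.9 CPM) and Akr7a5 (110 to 135 against 92.5 to 104 CPM). Those of Ptgr1 overlapped (2.11 to 2.71 CPM fasted, 2.39 to 4.37 CPM fed). Medians of the list were 0.31 in PC and -0.14 in PP. Between zones 3 of 14 were called in fed mice and 5 in fasted mice, each higher in PC, against 2.24% and 3.35% of all genes. Blvrb, biliverdin reductase B, stood at 117, 115 and 97.2 CPM in fed PC against 37.2, 34.1 and 29.3 in fed PP, and at 94.0, 251 and 143 CPM in fasted PC against 45.5, 36.6 and 29.1 in fasted PP. No library overlapped between the zones, and the log2 fold changes were 1.71 ± 0.30 in fed mice (edgeR adjusted p = 0.0070) and 2.13 ± 0.30 in fasted mice (edgeR adjusted p = 0.0020). Por (0.62 ± 0.16) and Fmo1 (0.53 ± 0.12) in both states and Akr1a1 in fasted mice (0.61 ± 0.15) were called higher in PC as well. The fed call of Por ended without any single fed library or without fasted PC library 3, and its fasted call held only without fed PP library 1 or 3 or fasted PC library 1 (highest edgeR adjusted p 0.157). Fmo1 lost its fasted call without fasted PC library 2 or 3 or fasted PP library 1 or 3. It lost its fed call without any single fed PC library or fed PP library 1 or 3, and Akr1a1 its call without fasted PC library 2 or 3 or any single fasted PP library (highest edgeR adjusted p 0.086 and 0.127).

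Of 14 genes listed as regulators, 13 were tested, and Sirt5 was listed at 0 CPM in every library, from which no level of its RNA is read. Fasting lowered 5 of 13 and raised 2 of 13 in each zone (10.2% and 11.1% of all genes in PC and 9.50% and 8.39% in PP), with medians of -0.69 in PC and -0.46 in PP. Srebf1, which encodes the sterol regulatory element binding protein of fatty acid synthesis, fell by 2.98 in PC and by 2.63 in PP on the log2 scale (edgeR adjusted p = 0.00028 and 0.00061). In its libraries it stood at 761, 1006 and 1236 CPM in fed PC and 182, 107 and 91.1 CPM in fasted PC, and at 777, 1277 and 1008 CPM in fed PP and 199, 194 and 101 CPM in fasted PP, with no overlap in either zone. Thrsp, a carbohydrate-induced gene of lipogenic tissue, fell by 3.64 in PC and by 2.55 in PP (edgeR adjusted p = 0.0018 and 0.010), of which the PP call ended with only the fed and fasted PP libraries in the fit. Mlxipl, the carbohydrate response element binding protein, fell by 1.12 in PC and by 1.19 in PP (edgeR adjusted p = 0.0196 and 0.018), of which the PC call ended without fed PC library 3 or fasted PC library 1 or 3 and the PP call without fed PP library 2 or 3 or fasted PP library 1 (highest adjusted p 0.082 and 0.072). Bach1, a heme-sensitive repressor that binds antioxidant response elements, rose by 1.02 ± 0.19 in PC and 0.76 ± 0.19 in PP (edgeR adjusted p = 0.0031 and 0.017), the latter ending without fed PP library 2 or 3 or fasted PP library 3 (highest adjusted p 0.063). Sirt2 in PC (0.32 ± 0.092) and Ppara in PP (0.70 ± 0.22) also passed, but that of Sirt2 ended when any single PC library was left out, and that of Ppara held only without fed PP library 1 or fasted PP library 1 (highest edgeR adjusted p 0.086 and 0.159). Of the 6 alternatives that keep all libraries or only the groups compared, 5 ended the call of Ppara and 2 that of Sirt2. Ppara stood at 64.1 to 91.5 CPM in fed PP and 75.9 to 148 CPM in fasted PP, with overlap. In PC, where Ppara was not called, it stood at 103 to 139 CPM fed and 171 to 189 CPM fasted, without overlap. Between zones edgeR called 0 of 13 in fed mice, where 2 were at an unadjusted p under 0.05 and DESeq2 called 1, and 0 of 13 in fasted mice, where 3 were and DESeq2 called 0. Ppara had the smallest p in both, at 0.69 ± 0.22 in fed and 0.57 ± 0.22 in fasted mice.

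Without fasted PC library 1, the PC calls of Txnrd2, Ptgr1, Mlxipl, Sirt2 and Sqle, the PP calls of Ppara and Dhcr7 and the fasted zone call of Pgm2 ended. On fasting in PC, Fasn then read -5.02, Thrsp -3.43, Srebf1 -3.35, Rpia -2.86, Me1 -1.95, Dhcr7 -1.80, Sc5d -1.74 and Shpk -0.37 on the log2 scale, and Por 1.43, Bach1 0.92, Me3 0.87, H6pd 0.74 and Akr7a5 0.44. Between zones in fasted mice, Blvrb read 2.40, Tm7sf2 0.86, Por 0.76 and Akr1a1 0.74. With only the groups compared in the fit, the fasted zone calls of Pgm2, Tm7sf2, Por, Fmo1 and Akr1a1 and the PP calls of Bach1 and Dhcr7 ended. Library totals ended the calls of Akr7a5 and Pgm2, and no filter on low counts those of Dhcr7 in both zones, Sqle in PC and Pgm2.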

How the data were processed

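Total RNA of 12 hepatocyte libraries (4 groups of 3) was sequenced from NEBNext Ultra libraries, per the labels' protocols. Values are the deposited estimated counts of each gene, made by the authors with kallisto 0.46.0 and the build mm10, per the submitters' processing notes. How transcripts were summed to genes was not given in the sources used here. Of 28030 identifiers, 27645 had a GENCODE M21 symbol. Estimated counts were rounded to whole numbers, which moved a library total by at most 121 counts. After filterByExpr and TMM scaling, edgeR 4.0.16 (R 4.3.3) fitted 1 mean per group over the 12 libraries together by robust quasi-likelihood, with 8 residual degrees of freedom, and p-values were adjusted over 12086 genes by Benjamini-Hochberg. Standard errors are the log2 fold change over the root of the test statistic, and p-values reflect only how far these libraries varied. The fit was also run on simulated counts, whose outcome is not given here and is not used for any result. DESeq2 1.42.0, other scalings, no filter, only the groups compared, a replicate block and leaving out each library were tried. Correlations used log2(CPM + 0.5). Copies of the genes were sought with BLAST+ 2.17.0 (at least 90% identity over 200 bases). Libraries of a group differed by a chi-square of 25.4 to 81.9 per degree of freedom, so none was a repeat deposit by that test. The genes and lists were chosen with earlier results of these data known. Of each list, up to 3 called genes per direction with the largest change are named, or the 2 with the smallest p, and the zone result of 1 gene is not reported here. Epcam, Sox9, Ly6c2, Cbr1, Cbr3, Nqo1 and Gsr were named after their values were seen, as were Sqle in PC, Dhcr7 in PP and Fmo1 between zones in fasted mice.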

Additional observations from a re-analysis of the deposited data

Results flagged for a closer look

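PC and PP libraries of Shpk, which encodes sedoheptulokinase, lay apart in opposite directions in the 2 feeding states. Such a lack of overlap was seen for 26.0% of all tested genes in fed mice and 22.0% in fasted mice. Neither zone difference of Shpk was called by edgeR, and the fed one did not reach an unadjusted p under 0.05. In fed mice the PC libraries (lowest 73.7, median 73.9 and highest 80.8 CPM) were all above the PP libraries (64.0, 65.7 and 69.1 CPM), and in fasted mice the PC libraries (55.7, 59.2 and 60.1 CPM) were all below the PP libraries (60.5, 62.8 and 77.7 CPM). The fasting effect in PC minus that in PP was -0.40 ± 0.15 (SE) on the log2 scale, with an unadjusted edgeR p of 0.017 and an adjusted p of 0.997, so it did not pass.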

How the results depend on the processing

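Up to 18 alternatives were run per comparison, and no called value changed sign. With DESeq2, 909 genes were called between zones in fed mice (570 by edgeR) and 11 for the difference between fasting effects (0 by edgeR). That difference gave 1 gene with no filter on low counts. With only the groups compared in the fit, 376 genes were called between zones in fasted mice (774 with all libraries) and 0 of the 6 genes described here (1 with all), and on fasting in PP 2 of the 6 were called (4 with all). With no filter, 2 of the 6 were called on fasting in PP. Leaving out each library in turn gave 292 to 701 genes for the zone in fed mice, 386 to 1005 in fasted mice, 1593 to 2618 for fasting in PC (2582 with all), 1405 to 2414 for fasting in PP (2162 with all) and 0 to 2 for the difference. Of the 6 genes it gave 0 to 1 for the zone in fasted mice, 2 to 3 for fasting in PC and 2 to 4 for fasting in PP. The lowest counts came without fed PC 2, fasted PC 2, fed PC 3 and fed PP 2 in that order, and the 2 genes of the difference without fasted PC 1. Counts also moved by over 1.5 times without fed PC 1 (365), fed PC 3 (338) or fed PP 2 (307) for the zone in fed mice, without fasted PC 3 (490) or fasted PP 3 (492) for the zone in fasted mice, and without fed PC 2 (1664) for fasting in PC. Same-numbered libraries of PC and PP correlated in their deviations from the group means at 0.27, 0.024 and 0.15 (fed) and 0.19, -0.12 and 0.094 (fasted). In both states the same-numbered PP library was the best match of PC libraries 1 and 3, but not of PC library 2. These values do not settle whether the numbers pair libraries. The labels do not tie numbers to mice, so the main fit took no pairing. With a replicate block, 4 of the 6 genes were called on fasting in PC (2 without it), G6pdx (-1.32, edgeR adjusted p = 0.029) and Tkt (-0.56, 0.022) being added. Of other named genes, 2931 values across alternatives kept their side of the threshold, 157 lost it and 27 gained it. G6pdx had as few as 57 counts in a library, and how far depth limited its precision was not tested.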

Other observations

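Fasted PC library 2 held the highest fasted PC level of Nqo1, Cbr1, Cbr3 and Gsr, 4 genes chosen after their values were seen. Nqo1, a quinone reductase, stood at 51.0 CPM there against 14.4 and 16.4 CPM in fasted PC libraries 1 and 3. Cbr1, a carbonyl reductase, stood at 369 CPM against 112 and 186 CPM, and its relative Cbr3 at 12.2 CPM against 0 in both others. Gsr, glutathione reductase, stood at 101 CPM against 66.9 and 75.3 CPM. The same library had the highest summed erythroid genes, 268 CPM, and the fewest estimated counts, 16245846. G6pdx, at 6.26 CPM, Pgd, at 40.0 CPM, Tkt, at 100.3 CPM, and Taldo1, at 91.8 CPM, were also highest in that library among the 3 of fasted PC. Pgls was lowest there, at 32.6 CPM, and Idh1, at 496 CPM, lay between libraries 1 and 3. Whether these values have a common source was not tested.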
